A study of Mus musculus with 8 samples.

Results

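Integrins are the receptors through which epithelial cells and macrophages hold on to matrix and to other cells, and the 10 subunit genes described here are Itgav, Itga2, Itga3 and Itga6 of the alpha kind and Itgb1, Itgb2, Itgb3, Itgb5, Itgb6 and Itgb8 of the beta kind. They were taken by symbol from the 33467 genes of the deposited expression table. All 10 were found, each symbol on a single row, and all 10 had enough counts to be tested. Livers came from wild type C57BL/6J mice kept pathogen-free, 4 on standard diet (Control) and 4 on a diet holding 1% DDC (3,5-diethoxycarbonyl-1,4-dihydrocollidine), a porphyrin-raising compound that injures bile ducts, each for 4 weeks. The labels call the 4 livers of a group biological replicates and give every library the same batch, while age and sex are not given in the sources used here. Whole liver was sequenced as bulk polyadenylated RNA, so a subunit's transcripts are summed over every cell type present. More cells of a type and more RNA per cell therefore cannot be told apart.

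Each integrin is a pair of 1 alpha and 1 beta subunit, and the pair sets the ligand. Alpha v pairs with beta 1, beta 3, beta 5, beta 6 or beta 8 and binds proteins with an RGD motif, among them vitronectin, osteopontin and the latent form of TGF-beta, which the alpha v beta 6 and alpha v beta 8 pairs are known to activate. Alpha 2 with beta 1 binds collagen, and alpha 3 or alpha 6 with beta 1 binds laminin of basement membranes. Beta 2 is the leukocyte subunit and pairs with the products of Itgal, Itgam, Itgax and Itgad. In normal liver hepatocytes carry few laminin receptors, whereas bile duct cells are known for alpha 2, alpha 3, alpha 6 and, when injured, beta 6.

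Promoter sequence is given for alpha v and for 3 of its beta partners. Each of these beta chains pairs with alpha v, and yet the transcripts moved by different amounts, as set out below. Of the other beta partners, Itgb3 had no promoter entry and the window of Itgb8 touched an annotated exon, so neither is shown. Of the 10 genes, 7 had a promoter entry in RefSeq (build GRCm38.p6). Each line holds the bases from 250 to 51 before the start site, 5′ to 3′ on the gene's strand, and capitals mark matches on either strand to any of 4 motifs searched: AP-1 (TGANTCA), TEAD (GGAATG), the GC box (GGGCGG) and SMAD (CAGACA).
Itgav (chr2:83724147-83724346, strand +): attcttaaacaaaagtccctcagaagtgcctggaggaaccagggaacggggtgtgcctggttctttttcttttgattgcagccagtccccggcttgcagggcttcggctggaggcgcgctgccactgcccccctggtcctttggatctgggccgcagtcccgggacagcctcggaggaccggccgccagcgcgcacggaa
Itgb1 (chr8:128685404-128685603, strand +): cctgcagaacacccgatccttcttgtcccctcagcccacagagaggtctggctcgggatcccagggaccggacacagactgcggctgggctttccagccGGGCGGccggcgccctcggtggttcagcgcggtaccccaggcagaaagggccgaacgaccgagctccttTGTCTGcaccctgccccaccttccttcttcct
Itgb5 (chr16:33829415-33829614, strand +): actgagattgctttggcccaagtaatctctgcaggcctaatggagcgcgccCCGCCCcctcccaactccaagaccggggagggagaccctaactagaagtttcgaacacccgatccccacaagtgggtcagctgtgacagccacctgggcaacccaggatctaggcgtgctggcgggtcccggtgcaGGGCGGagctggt
Itgb6 (chr2:60722654-60722853, strand -): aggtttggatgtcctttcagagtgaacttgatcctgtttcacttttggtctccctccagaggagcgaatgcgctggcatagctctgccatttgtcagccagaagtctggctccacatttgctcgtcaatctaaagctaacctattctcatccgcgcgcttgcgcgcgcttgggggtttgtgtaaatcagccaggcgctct
The windows of Itgb1 and Itgb5 held the GC box, which 24.6% of 32851 windows of this length also held. Itgb1 also held the SMAD letters, found in 14.3% of all windows. The windows of Itgav and of the upstream start of Itgb6 matched none of the 4 motifs, although 63.0% of the bases of Itgav and 52.0% of those of Itgb6 were G or C. A match is a run of letters and was not tested as a binding site.

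Integrin subunit transcripts were higher in DDC livers for 8 of the 10 genes and for no gene lower. The rises ran from 1.75-fold for Itgb5 to 7.40-fold for Itgb6, and for these 8 genes every DDC library lay above every Control library. Itgb1 and Itgb3 did not pass the test. Across 19535 tested genes, 30.2% were called higher at a false discovery rate of 0.05 by edgeR's quasi-likelihood fit, 26.6% lower and so 56.8% in either direction. The share with all DDC libraries above all Control libraries was 26.9%, and that with all below was 25.7%. Of the members, 7 were called at 2-fold or more and 4 at 4-fold or more, against 19.5% and 8.15% of all tested genes. The median log2 fold change was 1.85 over the members and 0.07 over all tested genes. Values below are CPM, counts divided by library totals that were scaled with TMM, a method that centres the bulk of genes. With library totals alone the median of all genes moved by 0.62 on the log2 scale, 11501 genes were higher and 1750 lower against 5893 and 5205 with TMM, and all 10 members were called higher against 58.9% of all genes.

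**Figure D1:**
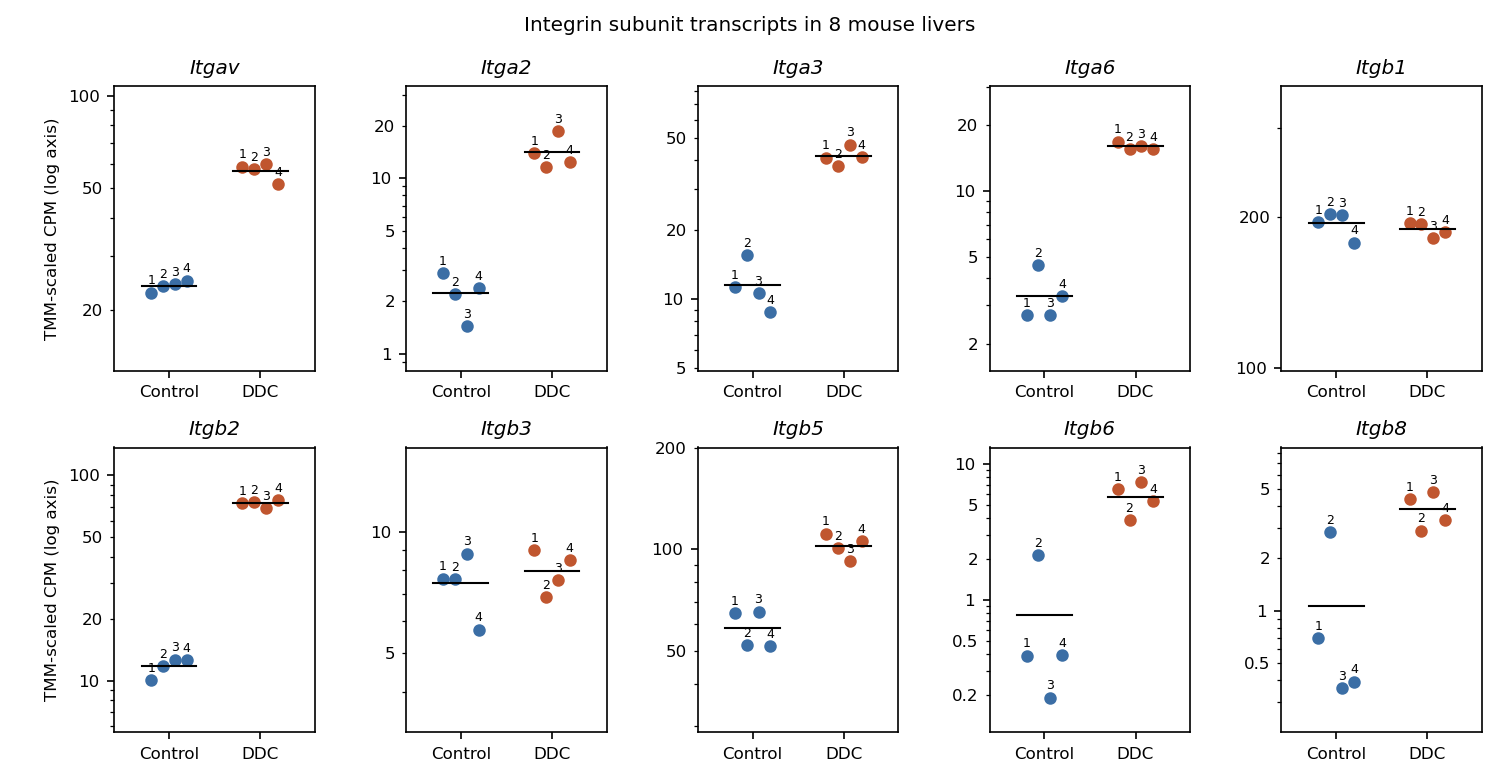
TMM-scaled CPM of the 10 integrin subunits in each library, on log axes that differ between panels, with Control in blue and DDC in orange. Digits give the replicate number and black lines the group mean. The DDC points lie above all Control points in 8 panels, Itgb1 and Itgb3 overlap, and Control 2 is the highest Control point for Itgb6 and Itgb8.

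The libraries held 61179103 to 81664058 counts. The hepatocyte markers Alb, Apoa1, Ttr, Cyp2e1, Cps1 and Serpina1c were abundant, as the tissue label says, summing to 140492 to 165189 CPM in Control and 56607 to 71830 CPM in DDC, and all 6 were called lower. One library stood apart from its group in genes that matter here. Control 2 had 153 CPM of 8 summed biliary epithelium markers, where Controls 1, 3 and 4 had 17.7 to 28.1 CPM and DDC livers 125 to 207 CPM. Leaving it out kept the count of called members at 8.

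The 4 alpha subunits all rose. Itgav, on chromosome 2 (83724397 to 83806916, plus strand), encodes the shared chain of the RGD-binding receptors. It was 22.8, 23.9, 24.2 and 24.9 CPM in Controls 1 to 4 and 58.6, 57.5, 59.7 and 51.4 CPM in DDC 1 to 4. Within each group the 4 livers were close, and the lowest DDC value was 2.06 times the highest Control value. The rise was 2.37-fold (log2 fold change 1.25, SE 0.06, edgeR adjusted p = 2.98e-07). Transcripts Gm13684 and Dnmt3l-ps1 overlap Itgav on the opposite strand, but with at most 6 and 7 counts in any library beside 1174 to 6183 for Itgav.

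Itga2 (chromosome 13, 114833081 to 114932100, minus strand) encodes the collagen-binding alpha chain of epithelial cells and platelets. Its level was 2.89, 2.19, 1.45 and 2.37 CPM in Controls 1 to 4 and 13.9, 11.6, 18.7 and 12.3 CPM in DDC 1 to 4. DDC 3 was the highest and all 4 DDC livers were at least 4.01 times the highest Control. The mean rose 6.34-fold (log2 fold change 2.66, SE 0.23, adjusted p = 9.1e-06).

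Itga3 and Itga6 encode laminin-binding alpha chains of epithelia. For Itga3 (chromosome 11, 95044474 to 95076797, minus strand) the Controls had 11.2, 15.5, 10.6 and 8.77 CPM and the DDC livers 41.0, 37.7, 46.7 and 41.3 CPM. The groups were well apart, Control 2 being the highest Control, and the rise was 3.62-fold (log2 fold change 1.86, SE 0.16, adjusted p = 8.26e-06). For Itga6 (chromosome 2, 71745616 to 71858416, plus strand) the Controls had 2.70, 4.56, 2.70 and 3.30 CPM and the DDC livers 16.9, 15.6, 16.1 and 15.6 CPM. Again Control 2 was the highest Control, and the 4 DDC livers were nearly equal, 4.84-fold above Control in the mean (log2 fold change 2.27, SE 0.17, adjusted p = 3.37e-06).

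Among the beta subunits, the leukocyte chain Itgb2 rose with the smallest SE of the called ones. Itgb2 (chromosome 10, 77530252 to 77565686, plus strand) was 10.1, 11.8, 12.6 and 12.5 CPM in Controls 1 to 4 and 73.0, 74.0, 69.2 and 75.8 CPM in DDC 1 to 4. No library strayed, and the lowest DDC value was 5.47 times the highest Control value. The rise was 6.21-fold (log2 fold change 2.63, SE 0.08, adjusted p = 3.7e-08).

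Itgb6 and Itgb8 encode the beta chains of the TGF-beta-activating pairs and were the least abundant members. Itgb6 (chromosome 2, 60598292 to 60722643, minus strand) was 0.388, 2.12, 0.190 and 0.392 CPM in Controls 1 to 4, from 20, 108, 10 and 19 counts, and 6.50, 3.82, 7.29 and 5.26 CPM in DDC 1 to 4. Control 2 lay far above the other Controls yet below every DDC liver. The fold was 7.40 (log2 fold change 2.89, SE 0.69, adjusted p = 0.00642), and without Control 2 the log2 fold change was 4.13 (adjusted p = 2.25e-05). Itgb8 (chromosome 12, 119158022 to 119238802, minus strand) was 0.698, 2.82, 0.361 and 0.392 CPM in Controls and 4.37, 2.87, 4.80 and 3.32 CPM in DDC. Control 2 was nearly level with DDC 2, the lowest DDC liver. The fold was 3.59 (log2 fold change 1.84, SE 0.63, adjusted p = 0.0318). Without Control 2 it was 2.98 on the log2 scale (adjusted p = 0.000112), but the call was lost on leaving out any of Controls 1, 3 and 4 or DDC 1, 3 and 4 (adjusted p from 0.0558 to 0.0826).

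Itgb5 rose least among the called members. This beta chain of the vitronectin receptor (chromosome 16, 33829665 to 33949338, plus strand) had 64.6, 52.0, 65.4 and 51.7 CPM in Controls 1 to 4 and 111, 101, 92.2 and 106 CPM in DDC 1 to 4. Every DDC liver exceeded every Control, and the rise was 1.75-fold (log2 fold change 0.81, SE 0.10, adjusted p = 8.39e-05).

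Itgb1 and Itgb3 overlapped between the groups. Itgb1 (chromosome 8, 128685654 to 128733200, plus strand), the common beta chain of most tissues, had 195, 202, 201 and 178 CPM in Controls 1 to 4 and 194, 193, 181 and 187 CPM in DDC 1 to 4. The fitted log2 difference was -0.04 (SE 0.06, adjusted p = 0.594). Itgb3 (chromosome 11, 104608000 to 104670476, plus strand), the beta chain that platelets and activated endothelium share, had 7.64, 7.60, 8.80 and 5.70 CPM in Controls and 8.99, 6.86, 7.58 and 8.49 CPM in DDC. The fitted log2 difference was 0.10 (SE 0.15, adjusted p = 0.586). Neither was called with DESeq2 size factors (adjusted p = 0.574 for Itgb1 and 0.603 for Itgb3) or upper-quartile scaling (0.768 and 0.38). With library totals alone Itgb1 was called higher at 0.58 on the log2 scale (adjusted p = 2.94e-05) and Itgb3 at 0.72 (adjusted p = 0.00285), beside a median of 0.70 for all genes.

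**Figure D2:**
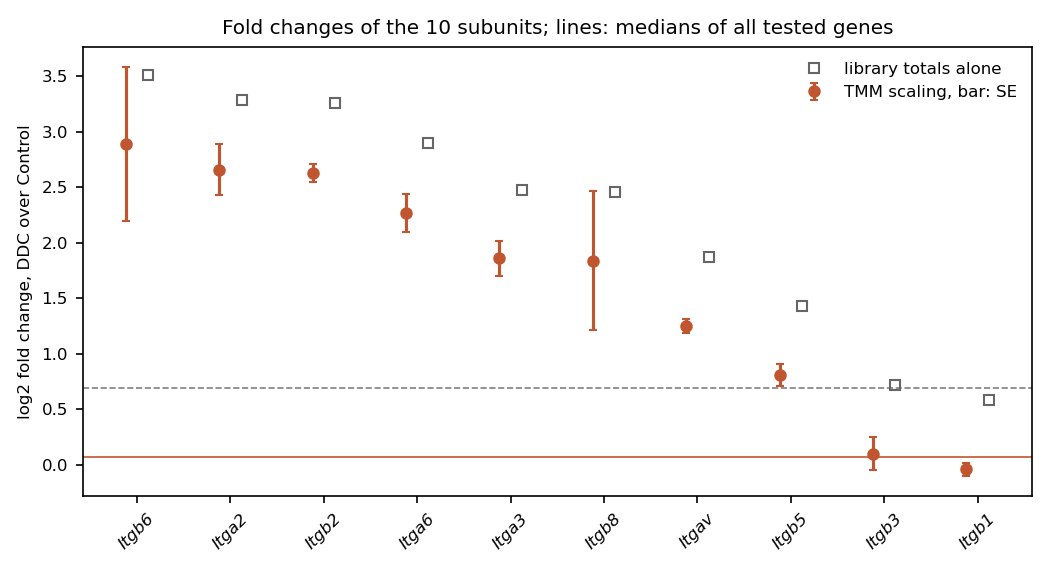
Log2 fold change of each subunit, DDC over Control, with TMM scaling (orange circles, bars of 1 SE from the edgeR fit) and with library totals alone (grey squares). The solid line is the median of all 19535 tested genes with TMM (0.07) and the dashed line that with library totals (0.70), and Itgb1 and Itgb3 lie near these lines while the other 8 lie above them.

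Levels of different genes were compared per length, in the deposited FPKM (fragments scaled by transcript length and library depth). FPKM follows library totals, under which the median of all genes was 0.70 higher in DDC on the log2 scale. Its values therefore serve to compare genes within a group, not levels between the groups. Itgb1 led in both groups, at 37.1 ± 2.71 FPKM in Control and 55.2 ± 0.794 FPKM in DDC (SD, n = 4 each), followed by Itgb5 at 12.8 ± 1.72 and 34.4 ± 2.48 FPKM. Itgb2 was next, at 3.00 ± 0.307 FPKM in Control and 28.6 ± 1.08 FPKM in DDC. In Control these 3 were apart from each other in every library, Itgav and Itga3 overlapped at 1.73 ± 0.0585 and 1.57 ± 0.409 FPKM, and Itga3 and Itgb3 overlapped too. Itga6, Itga2, Itgb6 and Itgb8 filled the bottom of the Control order with overlapping neighbours, from 0.279 down to 0.0751 FPKM. In DDC all neighbours in the order were apart, save Itga2 and Itga6 at 2.37 ± 0.573 and 2.09 ± 0.0827 FPKM. Itgb3 went from rank 6 in Control to rank 8 in DDC, and Itgb6 (0.961 ± 0.267 FPKM) and Itgb8 (0.416 ± 0.101 FPKM) stayed the lowest.

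A ratio of 2 subunits within a library does not depend on library scaling, and 8 such ratios of known dimer partners were compared, per kilobase, with an exact permutation test (two-sided, 70 ways to assign the libraries) and Benjamini-Hochberg adjustment over the 8. The smallest p this design allows is 0.0286. How often ratios of other gene pairs keep the groups apart was not computed. Among single genes, 26.9% had all DDC libraries above all Controls and 25.7% had all below. Itgb1, Itgb3 and Itgb5 were lower relative to Itgav in DDC. These ratios share Itgav, which itself rose by 1.25 on the log2 scale, so they are not independent results. Itgb1 stood at 22.6, 22.4, 21.9 and 18.8 times Itgav in Controls 1 to 4 and at 8.73, 8.86, 7.99 and 9.57 times in DDC 1 to 4, a difference of -1.28 on the log2 scale (exact p = 0.0286, adjusted 0.0381). Itgb3 over Itgav fell by 1.13 on the log2 scale (exact p = 0.0286, adjusted 0.0381), from 0.416 to 0.662 in Controls to 0.217 to 0.301 in DDC. Itgb5 over Itgav was 6.28 to 8.58 in Controls and 4.68 to 6.23 in DDC, 0.43 lower on the log2 scale (exact p = 0.0286, adjusted 0.0381), with the nearest libraries of the groups almost touching.

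Itgb6 and Itgb8 moved the other way relative to alpha v, without passing the test. Itgb6 over Itgav was 0.0256, 0.133, 0.0118 and 0.0237 in Controls and 0.167, 0.10, 0.184 and 0.154 in DDC, a log2 difference of 2.24 (exact p = 0.0571, adjusted 0.0653). Only Control 2 reached the DDC range. Itgb8 over Itgav was 0.0298, 0.115, 0.0145 and 0.0153 in Controls and 0.0725, 0.0485, 0.0781 and 0.0628 in DDC, a log2 difference of 1.13 (exact p = 0.171, adjusted 0.171). Here Control 2 was above all 4 DDC livers. Without Control 2 the log2 differences were 2.93 and 1.78, and no test was run on these.

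The matrix-binding alpha chains gained on Itgb1. Per Itgb1 transcript, Itga2 rose 6.60-fold, Itga3 3.79-fold and Itga6 5.09-fold (exact permutation p = 0.0286 and adjusted p = 0.0381 for each, n = 4 each), and in each of the 3 ratios the groups were apart. Itgb1 itself differed by only -0.04 on the log2 scale, so these ratios largely repeat the rises of the alpha chains given above. Itga6 over Itgb1 varied least of the 3 within DDC, at 0.0386, 0.0358, 0.0395 and 0.0371 in DDC 1 to 4 against 0.00615, 0.010, 0.00595 and 0.00826 in Controls 1 to 4. Itgb1 transcripts remained the more abundant of each pair.

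**Figure D3:**
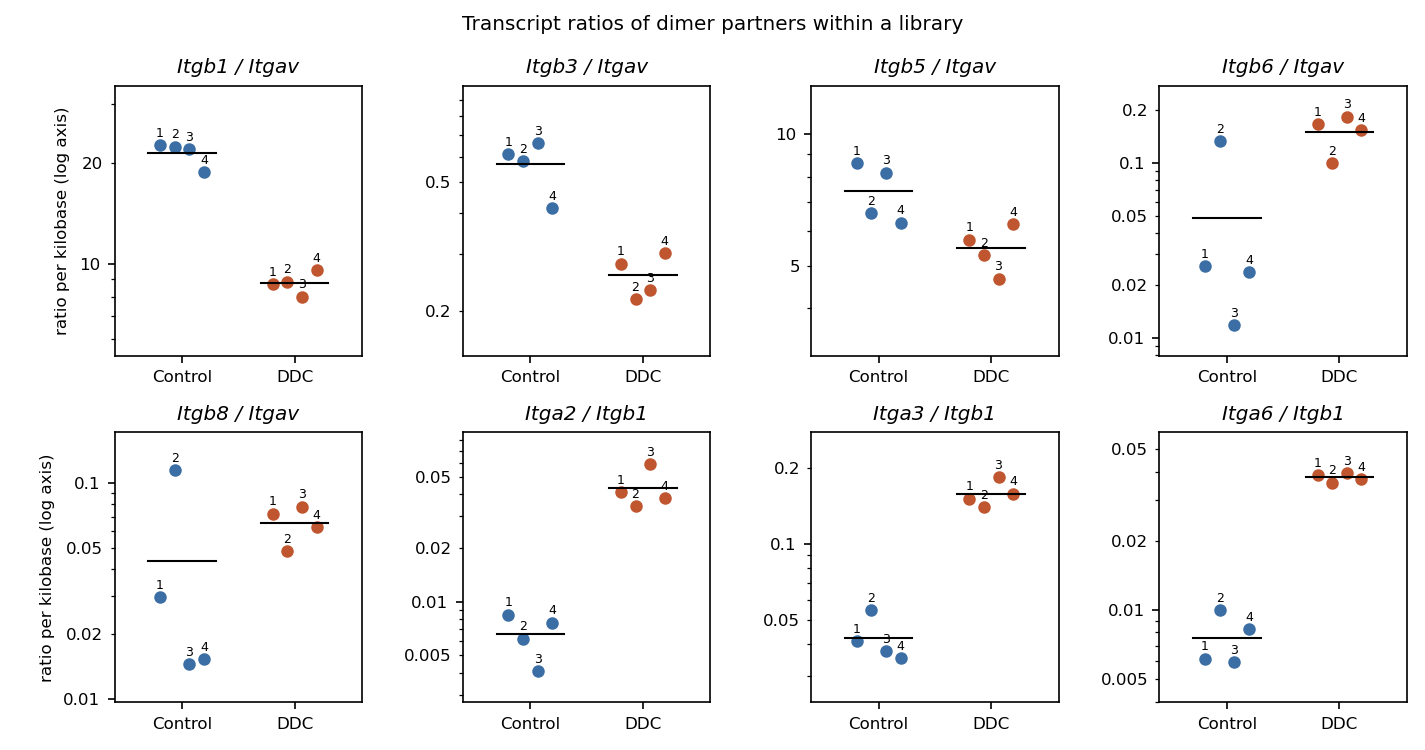
Ratio of transcripts per kilobase of dimer partners in each library, on log axes, with Control in blue, DDC in orange, digits for replicate numbers and black lines for group means. Itgb1, Itgb3 and Itgb5 over Itgav are lower in all DDC libraries, the 3 alpha chains over Itgb1 are higher in all, and Control 2 overlaps DDC for Itgb6 and Itgb8.

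As shares of the 5 alpha v partners' FPKM, Itgb1 made up 72.7% ± 1.97 in Control and 59.6% ± 1.42 in DDC (SD, n = 4 each). Itgb5 made up 25.1% ± 2.19 and 37.1% ± 1.36. Shares are parts of a whole that these chains dominate, so a larger share of Itgb5 brings a smaller share of Itgb1. Itgb1 itself was not called lower in DDC. Itgb3 held 1.91% ± 0.215 and 1.74% ± 0.168. Itgb6 went from 0.164% ± 0.191 to 1.04% ± 0.299 and Itgb8 from 0.145% ± 0.161 to 0.449% ± 0.115, so both remained minor at the transcript level. Itgb1 also pairs with other alpha chains, which these shares do not separate.

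Markers of the cells that carry these subunits moved in the same libraries. Of 8 biliary epithelium markers (Krt7, Krt19, Epcam, Sox9, Cldn4, Cldn7, Cftr and Muc1) 5 were called higher and none lower, Krt19, Cldn7 and Muc1 not passing. Their sum was 28.1, 153, 24.0 and 17.7 CPM in Controls 1 to 4 and 181, 125, 207 and 141 CPM in DDC 1 to 4, so Control 2 lay within the DDC range. In Control 2 the excess was largest for Krt19 (60.7 CPM) and Muc1 (53.7 CPM), while Cldn4 (0.509 CPM) was as low as in the other Controls. All 4 pan-leukocyte markers (Ptprc, Coro1a, Laptm5 and Cd52) were higher, their sum going from 43.2 to 50.6 CPM in Controls to 232 to 247 CPM in DDC. So were all 8 of the macrophage and monocyte list (Adgre1, Cd68, Csf1r, Lyz2, C1qa, Ccr2, Cx3cr1 and Trem2), from 157 to 210 CPM to 1272 to 1349 CPM, and all 5 neutrophil markers, from 24.1 to 31.4 CPM to 94.4 to 128 CPM. Stellate cell and fibroblast markers were higher in 4 of 8, sinusoidal and vascular endothelium markers in 3 of 7, mesothelium markers in 3 of 5 and T and NK cell markers in 2 of 5, with none lower. Over all tested genes 30.2% were higher, so the endothelium and T and NK cell counts lay near the background. The part of cell numbers in the integrin results was not tested.

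Set against the marker sums of their own libraries, the subunits divided. Itgb6 was 1.38%, 1.38%, 0.793% and 2.21% of the summed biliary markers in Controls 1 to 4 and 3.59%, 3.05%, 3.53% and 3.72% in DDC 1 to 4, so Control 2 was no longer set off from the other Controls and the groups were apart. For Itgb8 the range was 1.51% to 2.48% in Controls and 2.29% to 2.41% in DDC, so the groups overlapped. For Itga2, Itga3 and Itga6 the same ratio also overlapped between the groups, with Control 2 the lowest library for each. Itgb2 was 22.4% to 27.7% of the summed pan-leukocyte markers in Controls and 29.3% to 32.0% in DDC, whereas against the macrophage and monocyte sum it was 5.98% to 7.51% in Controls and 5.32% to 5.82% in DDC. Itgb3 was 202% to 261% of the summed platelet markers in Controls and 103% to 111% in DDC, where Pf4 made up most of that sum. These ratios are descriptions with no test, and they change with the markers chosen. In Control 2, Krt19 (60.7 CPM) and Muc1 (53.7 CPM), neither of them called, weighed most in the biliary sum of 153 CPM. Single biliary markers changed by -0.50 for Muc1 to 5.89 for Cldn4 on the log2 scale. Epcam alone rose by 2.83, near the 2.89 of Itgb6.

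**Figure D4:**
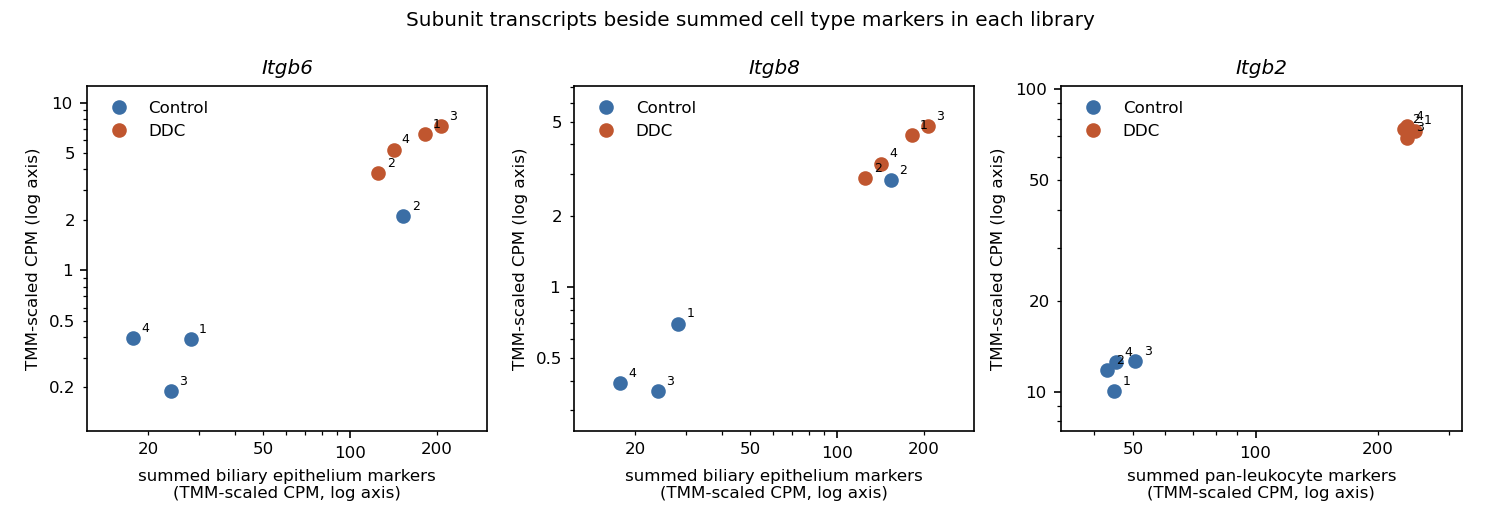
Level of Itgb6 and Itgb8 against 8 summed biliary epithelium markers and of Itgb2 against 4 summed pan-leukocyte markers, in TMM-scaled CPM on log axes, 1 point per library with its replicate number. Control 2 (blue) lies beside the DDC points (orange) for the biliary markers and with the other Controls for the pan-leukocyte markers.

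Platelets also carry Itga2 and Itgb3, and of 8 platelet and megakaryocyte markers 5 had enough counts to be tested. Pf4 and Treml1 were called higher and Ppbp lower. Gp1ba and Gp5 also had lower fitted levels in DDC (-1.04 and -1.17 on the log2 scale) but were not called. The sum was 2.66 to 3.86 CPM in Controls and 6.41 to 8.20 CPM in DDC. Pf4 alone made up 4.89 to 6.75 CPM of the DDC sum, so the rise of the sum mostly follows Pf4. Treml1 was at 0 in all Controls and Gp6 at 0 in all DDC livers. Itga2b, the platelet partner of beta 3, was 5.61 ± 1.26 CPM in Control and 6.51 ± 0.0749 CPM in DDC (SD, n = 4 each) and did not pass (edgeR adjusted p = 0.303), though it was called higher with library totals alone (adjusted p = 0.00221).

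All 17 of the other integrin subunits were tested, of which 11 rose and 2 fell, beside 30.2% and 26.6% of all tested genes, with a median log2 fold change of 0.90. Under library totals 13 rose and 1 fell, where 58.9% of all genes rose. Among the alpha partners of beta 2, Itgax, of macrophages and dendritic cells, rose 19.1-fold from 1.34 ± 0.389 to 25.6 ± 2.18 CPM, Itgam 12.2-fold from 2.57 ± 0.783 to 31.5 ± 2.41 CPM, and Itgal, of lymphocytes and other leukocytes, 3.98-fold from 12.7 ± 1.11 to 50.4 ± 1.33 CPM. Itgad, the fourth partner, was at most 0.270 CPM in any library and was not called (adjusted p = 0.838). Itgb4, which joins alpha 6 in the hemidesmosomes of epithelia, rose 5.86-fold and had 1.22, 4.60, 0.951 and 1.38 CPM in Controls 1 to 4 against 8.78 to 14.5 CPM in DDC. Its Control 2 value stood out as those of Itgb6 and Itgb8 did, and without it the log2 fold change went from 2.55 to 3.33. The fibronectin receptor chain Itga5 rose 1.73-fold. Itga10 fell 2.62-fold from 6.46 ± 1.16 to 2.46 ± 0.253 CPM and fell with library totals too, whereas Itga7 fell 1.37-fold with TMM but stood at 0.17 on the log2 scale, uncalled, under library totals (adjusted p = 0.204).

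Ligands of the RGD-binding, laminin-binding and collagen-binding integrins rose in 16 of 24 tested genes and fell in 3, Vtn, Fn1 and Adam9. Of all genes, 30.2% rose and 26.6% fell, and the median log2 fold change of the list was 0.91. The collagen chains on the list, Col1a1, Col1a2, Col4a1 and Col4a2, were all among those that rose. With library totals alone 20 rose, beside 58.9% of all genes, and only Vtn fell. Spp1, which encodes osteopontin, rose 14.3-fold from 50.8 ± 1.91 to 728 ± 149 CPM, and Mfge8, an RGD protein that bridges dying cells to phagocytes, rose 11-fold from 18.0 ± 0.283 to 197 ± 25.6 CPM. The collagen chains Col1a1 and Col1a2 rose 16.2-fold and 8.72-fold. Vtn, the vitronectin gene of hepatocytes, fell 2.30-fold from 3097 ± 50.3 to 1344 ± 45 CPM (edgeR adjusted p = 2.2e-07, SE 0.06 around -1.20 on the log2 scale). Fn1 fell 1.52-fold with TMM, from 1911 ± 122 to 1259 ± 50.4 CPM (edgeR adjusted p = 5.3e-05). With library totals alone Fn1 stood at 0.02 on the log2 scale and was not called (adjusted p = 0.817). Among ligands of alpha v, then, the abundant hepatocyte product Vtn was lower under both scalings, while Spp1 and Mfge8 were higher.

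Genes of TGF-beta and its latency proteins rose in 9 of 9, beside 30.2% of all genes. They also rose in 9 of 9 with library totals alone, where 58.9% of all genes rose. In 8 of the 9 all DDC libraries lay above all Control libraries, beside 26.9% of all genes. The median log2 fold change was 2.23. Ltbp2, a matrix latency-family protein, rose 22.5-fold from 1.43 ± 0.415 to 32.1 ± 4.28 CPM, and Ltbp3 5.09-fold. Of the ligands, Tgfb2 rose 13.7-fold from 0.706 ± 0.511 to 9.72 ± 1.18 CPM, or 3.78 on the log2 scale and 4.40 once Control 1 was left out, and Tgfb3 rose 5.09-fold. Both Tgfb1 and Tgfb3 carry the RGD site that alpha v binds, and both were called higher. They are also counted among the integrin ligands above, so these lists overlap.

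Of 11 genes listed as ligands of the beta 2 integrins or as relatives of such ligands, 4 were higher and 3 lower. These shares lay near the 30.2% and 26.6% of all tested genes. Icam1, the endothelial and inflammatory ligand, rose 3.31-fold from 19.8 ± 2.59 to 65.7 ± 9.21 CPM. F11r rose 1.73-fold, Jam2 1.92-fold and Thy1 1.96-fold. The 3 that fell were the fibrinogen chains of hepatocytes, Fga, Fgb and Fgg, by 1.74-fold, 1.79-fold and 2.00-fold. With library totals alone 7 were higher, near the 58.9% of all genes, and the same 3 lower.

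Integrin adaptors and activators rose in 16 of 29 genes and fell in 5, beside 30.2% and 26.6% of all genes, with a median log2 fold change of 0.49. Those of blood cells led: Parvg rose 7.97-fold from 1.55 ± 0.553 to 12.3 ± 0.474 CPM, Apbb1ip, which links Rap1 to talin, 5.68-fold from 3.00 ± 0.507 to 17.1 ± 0.840 CPM, and Fermt3, the leukocyte and platelet kindlin, 5.29-fold from 6.67 ± 1.00 to 35.3 ± 2.06 CPM. The epithelial kindlin Fermt1 rose 4.86-fold from 1.47 ± 0.365 to 7.18 ± 1.15 CPM. The widely expressed kindlin Fermt2 fell 1.53-fold with TMM, but stood at 0.01 on the log2 scale under library totals (adjusted p = 0.901). Talin itself, Tln1, rose 1.58-fold. Of the genes that fell, Tns1 (1.99-fold) was the only one also lower with library totals alone, where 25 of the list and 58.9% of all genes were higher.

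Membrane proteins that travel with integrins rose in 6 of 12 and fell in 1, beside 30.2% and 26.6% of all genes. Their median log2 fold change of 0.15 was near the 0.07 of all genes. Under library totals alone 10 were higher, beside 58.9% of all genes. The urokinase receptor Plaur rose 10.8-fold from 1.84 ± 1.19 to 19.9 ± 2.12 CPM. The tetraspanins Cd63 and Cd9 rose 9.28-fold and 4.77-fold. Sdc4, a heparan sulfate co-receptor, fell 3.04-fold from 538 ± 38.5 to 177 ± 25.8 CPM and also fell with library totals alone.

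Among 13532 named genes at a mean of 1 CPM or more, the profile nearest to each member called at 2-fold or more was found as the smallest root mean square distance between centred log2 CPM over the 8 libraries. Laptm5 (distance 0.0615), Nckap1l (0.0844) and Hacd4 (0.0856) were nearest to Itgb2, of which Laptm5 is also on the pan-leukocyte list. Nearest to Itgb6 were St14 (0.205), Spint1 (0.296) and Epcam (0.306), the last on the biliary list. For Itgb8 they were Igsf9 (0.242), Vill (0.266) and Scn8a (0.276). Epb41l2 (0.0640), Adam10 (0.0764) and Rab32 (0.0782) were nearest to Itgav. For Itga2 the nearest were Neurl3, Rgs10 and Sting1 (0.189 to 0.204), for Itga3 Npdc1, Fam129b and Gprc5a (0.0929 to 0.110), and for Itga6 Psd4, Ckb and Kifc1 (0.124 to 0.136). These distances mostly measure a like fold change between the groups and are given as descriptions with no test.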

How the data were processed

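RNA of 8 livers was measured. Per the labels' protocols, polyadenylated RNA was made into dUTP libraries and sequenced in pairs. The authors deposited raw gene counts, and FPKM that they scaled by length and depth. Per the submitters' processing notes cutadapt, FastQC, HISAT2, StringTie and DESeq2 were used on GRCm38 and mm10, with versions, roles and use of strand not given in the sources used here. Counts of all 55401 genes were fitted with edgeR 4.0.16 (R 4.3.3): filterByExpr, TMM, robust quasi-likelihood, no covariate, Benjamini-Hochberg over 19535 genes, call at 0.05. Standard errors are the log2 fold change over the square root of F. Lengths for ratios came from count over FPKM. The fit was tested on simulated counts in which a small part of the genes changed and the library composition did not shift. That setting differs from these livers, so it does not check the scaling. A first criterion on recovery was missed and replaced by unbiased folds and under 10% false calls. Alternatives used DESeq2 1.42.0 and limma 3.58.1. Members and lists were chosen with earlier results of these data known. The marker ratios were added after seeing the values. Of 10 biliary markers listed at first, 2 are not reported here, and sums are without them. From each list the text names up to 4 called genes at 1 CPM or more with the largest changes, plus the largest called the other way, and any other gene was singled out after its values were seen. Libraries of a group differed by more than sampling noise, by the chi-square of counts per degree of freedom. It was 13.5 for Controls 1 and 3, 62.7 for Controls 2 and 4, and 162 to 220 for the other Control pairs. DDC 1 stood at 89.7 to 98.9 from the other DDC livers, which stood at 15.9 to 22.5 from each other. Depth limits Itgb6 and Itgb8 most, and counts cover counting error only.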

Additional observations from a re-analysis of the deposited data

Results flagged for a closer look

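Among 122 groups of 4 libraries looked at, 14 held a library whose gap to the next exceeded Dixon's 95% critical value, which chance alone gives in about 1 group in 20. The groups share libraries, so they are not independent. Control 2 was the library set apart in 10 of the 14. It was the highest Control at 2.12 CPM for Itgb6 (others 0.190 to 0.392), 2.82 CPM for Itgb8 (0.361 to 0.698), 4.60 CPM for Itgb4 (0.951 to 1.38), 2.37 CPM for Parvg (1.22 to 1.36) and 3.60 CPM for Plaur (1.01 to 1.44). The same library gave the ratios to Itgav of 0.133 for Itgb6 and 0.115 for Itgb8, the shares of alpha v partners of 0.448% for Itgb6 and 0.385% for Itgb8, and the biliary marker sum of 153 CPM (17.7 to 28.1). DDC 1 was highest for Tns1 (234 CPM, others 150 to 160) and Sdc4 (215 CPM, others 162 to 169) and lowest for Tgfb2 (7.96 CPM, others 10.2 to 10.4). Control 4 had the lowest Itgb1 over Itgav ratio, 18.8 against 21.9 to 22.6.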

How the results depend on the processing

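Itgb1 changed sign with upper-quartile scaling (0.02), no count filter (0.00), library totals alone (0.58) and log2 FPKM with pseudocounts of 0.1 and 1 (0.58 and 0.57), and Itgb3 did so without Control 4 (-0.02, up to 0.18 without Control 3). Itgav, Itga2, Itga3, Itga6, Itgb2, Itgb5 and Itgb6 were called higher in all 19 alternatives and Itgb8 in 11. Itgb8 also lost its call with no count filter and against a fold of 1.5 (adjusted p = 0.0523 and 0.0828). Called members numbered 7 to 8 without each library. With library totals alone and log2 FPKM at both pseudocounts, 11501, 11973 and 11944 genes were higher and 1750, 1831 and 1807 lower. Against a fold of 1.5 there were 3316 higher and 2120 lower, 5436 in all. In those FPKM fits and with library totals, genes of the beta 2 ligand list higher numbered 7 and associated membrane proteins 10. There, other integrins, the RGD, laminin and collagen ligands, and adaptors lower numbered 1 each. Adaptors higher were 25 with library totals. Against a fold of 1.5, associated proteins higher were 3 and adaptors lower 2. At that same threshold, other integrins lower and the RGD, laminin and collagen ligands lower were 1 each. Associated proteins lower numbered 1 to 2 without each library, 2 without Control 4 or DDC 1. Without each library the log2 ratio differences kept their sign: -1.34 to -1.24 for Itgb1, -1.27 to -1.05 for Itgb3, -0.50 to -0.35 for Itgb5, 1.77 to 2.93 for Itgb6 and 0.79 to 1.78 for Itgb8. The cause of these shifts was not tested. Replicate numbers did not pair the animals (correlations of same-numbered deviations -0.21 to 0.03). With the replicate block 9464 genes were called and 8 members were higher, and the paired ratio test cannot go below 0.125.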
